A study of Rattus norvegicus with 11 samples.

Results

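Complement and coagulation factors are secreted proteins that the liver makes for the blood, and 44 genes of these cascades were followed in liver RNA of Wistar rats given the high dose of mequindox and of control rats. A gene was represented by its brightest probe set over the 11 arrays, taken from probe sets to which the platform annotation gives a single symbol, and 38 of the 44 genes had one. Of these, 37 passed a filter on low signal and were tested among 10714 genes, out of 14218 genes with a probe set of a single symbol. C2 and Cfb shared their probe sets with each other, and F7, F11, F13b and Proz were not analysed here. F3, which encodes tissue factor, lay under the filter. The list is one of function, and within it complement was set against clotting factors, anticoagulants and fibrinolysis.

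The study compared 8 high-dosed mequindox animals (numbers 2, 3, 4, 5, 6, 8, 10 and 11) with 3 control animals (numbers 1, 2 and 9), 1 Affymetrix array per liver. Mequindox is a quinoxaline N-oxide antibacterial used in livestock. Animals were labelled as 9 weeks old, apart from high-dosed animal 8 at 10 weeks, and the dose in mass and the length of treatment are not given in the sources used here. The submitters state that these groups were taken to arrays because of a principal component analysis of liver extracts and clinical chemistry, so their choice was not blind to other measurements.

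In the complement cascade, recognition proteins such as C1 and the mannose-binding lectins activate proteases that cleave C3 and C5, and the terminal components then assemble into a pore in the target membrane. In coagulation, a chain of serine proteases ends in thrombin, which turns fibrinogen into fibrin. Anticoagulant serpins and the protein C and protein S system restrain the chain, and plasmin dissolves the clot. Hepatocytes make most of these proteins, and many also respond to inflammation as acute phase proteins.

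The hepatic complement and coagulation transcripts differed little between high-dosed and control livers. Of the 37 genes tested, 1 rose in the high-dosed animals, Pros1, the cofactor of activated protein C, and 1 fell, the lectin gene Mbl2. Both changes were under 1.2-fold, and 35 genes did not pass the test (limma, Benjamini-Hochberg adjusted p below 0.05 over all genes tested). The called share was 5.41% of the members, against 9.84% of all genes tested (7.23% higher and 2.60% lower). Among the 894 genes tested with a mean log2 signal of 12 or more, 13.6% were called. The median log2 fold change of the members, high-dosed minus control, was -0.018, beside 0.017 over all genes tested, and their median absolute log2 fold change was 0.049, beside 0.12 over all genes and 0.080 over the 894 bright ones. For 31 of the 37 members the 95% interval of the difference lay within 1.2-fold in either direction, which held for 29.8% of all genes tested and for 66.0% of the 894 bright genes. Brightness moved with precision: the median SE was 0.046 for the members, 0.055 for the bright genes and 0.094 for all genes, at median log2 signals of 13.45, 12.74 and 9.32. Its part in the narrow intervals of the members was not tested. The exceptions were Pros1, Mbl2, Masp1, C5, C6 and Plat, whose intervals reached beyond 1.2-fold. In 4 members (10.8%) the high-dosed and control animals did not overlap, against 12.1% of all genes (8.69% higher and 3.37% lower). These were Pros1, which was higher, and Mbl2, Serping1 and Serpina1, which were lower.

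**Figure D1:**
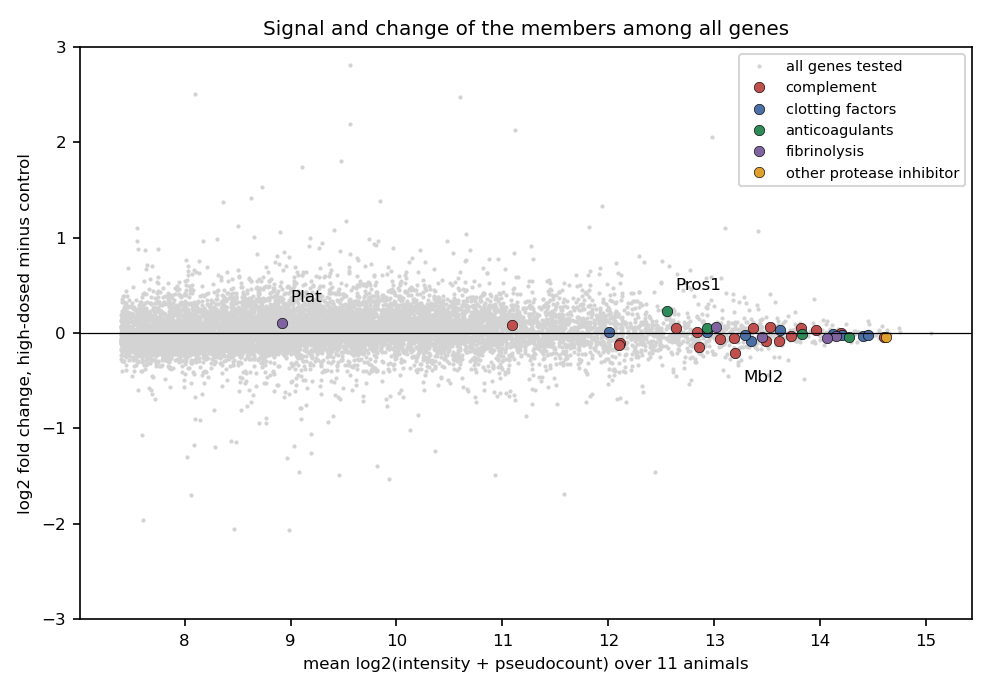
Mean log2(intensity + pseudocount) over 11 animals (x axis) against the log2 fold change, high-dosed minus control (y axis), for each gene tested. Grey points are all 10714 genes and coloured points are the 37 complement and coagulation genes; apart from Plat they lie at the bright end, with changes between -0.21 and 0.23.

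Promoters are shown for 3 genes, those of the 2 called genes and of Fgb, a fibrinogen gene whose 2 probe sets above the filter gave different patterns. They are RefSeq sequences of build GRCr8, from 250 bases before to 50 after the start of the gene. Capitals mark matches, on either strand, to the half-site of the liver factor HNF1 (GTTAAT) or to the letters TTNNGNAA of the C/EBP family, both known to drive genes of this kind in liver. Pros1 lies at chr11:13677049-13677348 on the plus strand, Mbl2 at chr1:237430793-237431092 on the plus strand and Fgb at chr2:170700826-170701125 on the minus strand.
Pros1: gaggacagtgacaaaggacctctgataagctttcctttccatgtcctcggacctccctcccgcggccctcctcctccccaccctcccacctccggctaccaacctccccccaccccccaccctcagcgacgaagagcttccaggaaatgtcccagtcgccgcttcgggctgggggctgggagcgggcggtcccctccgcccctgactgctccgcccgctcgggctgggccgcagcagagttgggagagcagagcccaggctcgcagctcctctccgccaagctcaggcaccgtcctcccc
Mbl2: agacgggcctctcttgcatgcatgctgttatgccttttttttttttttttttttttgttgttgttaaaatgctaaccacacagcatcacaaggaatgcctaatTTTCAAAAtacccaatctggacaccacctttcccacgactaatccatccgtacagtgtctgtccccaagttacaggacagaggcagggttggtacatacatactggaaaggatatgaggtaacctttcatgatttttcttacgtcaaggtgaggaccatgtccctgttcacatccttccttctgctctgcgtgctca
Fgb: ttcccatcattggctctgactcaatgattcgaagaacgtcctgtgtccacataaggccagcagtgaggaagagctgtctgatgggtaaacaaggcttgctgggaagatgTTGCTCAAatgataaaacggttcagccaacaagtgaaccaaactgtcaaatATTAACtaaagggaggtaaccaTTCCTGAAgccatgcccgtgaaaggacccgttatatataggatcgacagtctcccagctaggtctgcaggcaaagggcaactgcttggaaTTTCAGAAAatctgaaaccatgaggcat
The window of Pros1 held 0 matches to either motif, that of Mbl2 held 1 C/EBP match, and that of Fgb held 1 HNF1 half-site and 4 C/EBP matches, some of which overlap. GC made up 69% of the Pros1 window, which placed it at the 90.9th percentile of 33469 rat promoters, and 43% and 46% of the windows of Mbl2 and Fgb. Of the 44 genes 32 had a promoter in the table. An HNF1 half-site stood in a window of 10 of the 32 genes (31.2%), against 7.45% of the 33469 promoters. The C/EBP letters stood in 22 (68.8%, against 41.3%). The letters CAAAGNNCA of HNF4 stood in 5 (15.6%, against 6.08%). The D-box of the clock output factors (TTATNNAA) stood in 6 (18.8%, against 12.7%) and the E-box (CACGTG) in 1, C8a (3.12%, against 6.42%). A gene was counted once if any of its windows matched, while the 33469 promoters were counted singly. Those promoters were not matched to the members for GC, and the letters GTTAAT are rich in A and T. The part of base composition in these shares was not tested. Matches are descriptions of the letters, not of bound sites.

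Several of these genes are neighbours in GRCr8. The promoter windows of Fgg, Fga and Fgb lie within chr2:170652833-170701125, the fibrinogen cluster. The windows of C8b and C8a, of C4bpb and C4bpa, and of F11 and Klkb1 are close pairs on chromosomes 5, 13 and 16. In the C8 pair the log2 fold changes were 0.056 for C8b and -0.066 for C8a, and in the C4-binding protein pair -0.034 for C4bpa and -0.050 for C4bpb, with 0 of the 4 called.

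Pros1 encodes protein S, the vitamin K-dependent cofactor of activated protein C and of tissue factor pathway inhibitor. The 8 high-dosed animals had intensities of at least 5796, with a median of 6202 and a highest value of 6605. The controls had 5474 in animal 1, 4978 in animal 2 and 5409 in animal 9. Every high-dosed animal lay above every control. The means were 6228 ± 272 (SD, n = 8) in high-dosed and 5287 ± 270 (SD, n = 3) in control livers, a log2 fold change of 0.23 ± 0.049 (SE, limma adjusted p = 0.0111), or 1.176-fold with a 95% interval of 1.094 to 1.265. Without control 2, the lowest animal, the log2 fold change was 0.19 and the call was lost (adjusted p = 0.0551). It was also lost when arrays were centred on the median of the probe sets tested (0.21, adjusted p = 0.0533). A fit with animal numbers 6 and below lost it too (0.24, adjusted p = 0.0707). The call held in 22 of 25 alternatives. Over all 25 the log2 fold change ran from 0.19 to 0.27 with adjusted p from 0.00396 to 0.0707. Protein S is also made by endothelial cells. Over all genes tested, 7.23% were called higher and 2.60% lower. Of 9 tested endothelial markers 3 rose (Pecam1, Emcn and Stab2), 0 fell and 6 did not pass. Of the 9, 8 had a log2 fold change above 0, with Eng at 0.023 ± 0.078 (SE). Lyve1 was the 1 below 0 (-0.12 ± 0.065, SE). The summed intensity of the markers ran from 12810 to 13974 in high-dosed and from 11170 to 12523 in control animals. None of the markers stood at 0. The part of these markers in the difference of Pros1 was not tested. In bulk tissue, a change in the number of cells of a type and a change in RNA per cell cannot be told apart.

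The other anticoagulants tested were Serpinc1 (antithrombin), Serpind1 (heparin cofactor II) and Proc (protein C), and none passed. Antithrombin had intensities from 19080 to 20214 in high-dosed and from 20045 to 20421 in control animals (log2 fold change -0.044 ± 0.026, SE). Heparin cofactor II ran from 14110 to 14924 in high-dosed and from 14314 to 14977 in control animals. Protein C spread more, from 6839 in high-dosed animal 6 to 9354 in high-dosed animal 2, against 7336 to 7809 in controls. The median log2 fold change of the 4 anticoagulants was 0.018, with 2 above 0 and 2 below.

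Mbl2 encodes mannose-binding lectin C, which binds microbial sugars and starts the lectin pathway. Its brighter probe set had 8287 at the lowest, 9071 at the median and 9628 at the highest in high-dosed animals. Controls 1, 2 and 9 had 10789, 10437 and 9973. The groups did not overlap, with means of 8983 ± 550 (SD, n = 8) in high-dosed and 10400 ± 409 (SD, n = 3) in control livers. The log2 fold change was -0.21 ± 0.054 (SE, limma adjusted p = 0.0276), or 0.864-fold with a 95% interval of 0.797 to 0.936. The dimmer probe set of Mbl2 had a log2 fold change of -0.18 ± 0.10 (SE), and here the groups overlapped, at 3024 to 4402 in high-dosed and 3765 to 4490 in control animals. The call was lost when both probe sets were averaged (-0.20, adjusted p = 0.122), without a variance trend, without control 1 (-0.18, adjusted p = 0.154) or control 2 (-0.21, adjusted p = 0.0792), when each array was centred on the median of all probe sets (-0.17, adjusted p = 0.16), and without high-dosed animals 8, 10 and 11 (-0.20, adjusted p = 0.0723). A fit with animal numbers 6 and below lost it too (-0.23, adjusted p = 0.0916). The call held in 18 of the 25 alternatives. Over all 25 the log2 fold change ran from -0.24 to -0.17, and the adjusted p from 0.018 to 0.16.

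**Figure D2:**
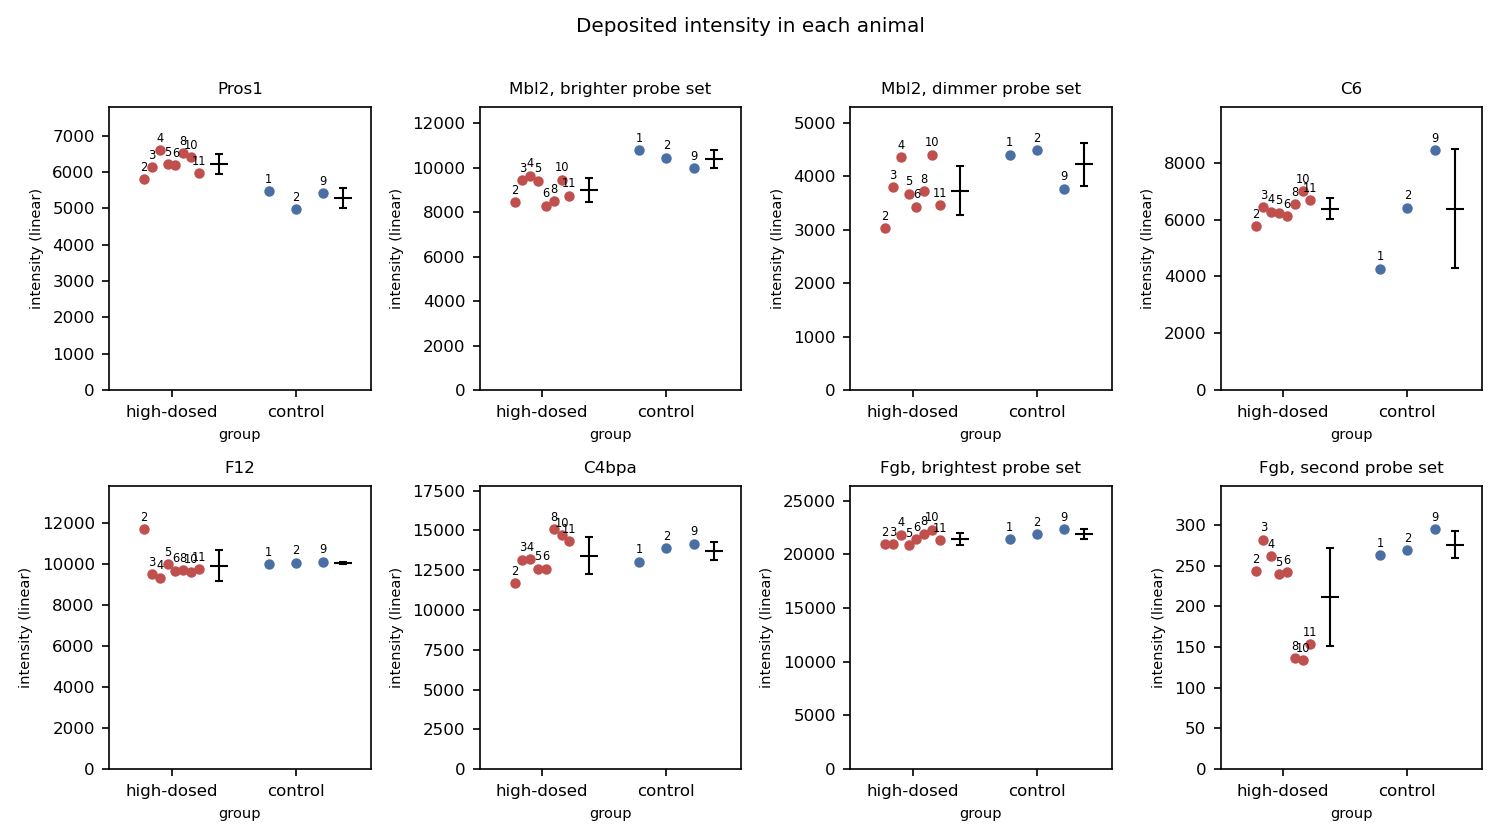
Deposited intensity (linear, y axis from 0) in each high-dosed and control animal, labelled with the animal's number, for 8 probe sets; the black bar is the mean and SD of the group. The groups of Pros1 and of the brighter Mbl2 probe set do not overlap, the controls of C6 spread from 4276 to 8452, F12 is highest in high-dosed animal 2, and the second Fgb probe set is lowest in high-dosed animals 8, 10 and 11.

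The other genes that start complement activation did not pass. Mbl1, encoding mannose-binding lectin A, had a log2 fold change of -0.10 ± 0.055 (SE, limma adjusted p = 0.259), with 3881 to 4641 in high-dosed and 4504 to 4761 in control animals. C1r and C1s encode the proteases of the C1 complex. C1s had 11510 to 13141 in high-dosed and 11105 to 11890 in control animals (0.062 ± 0.042). C1r varied among high-dosed animals, from 6198 to 8628, with the controls inside that range at 6848 to 7510. The lectin pathway proteases Masp1 and Masp2 each had 3 probe sets above the filter, and these did not share a direction. For Masp2 the brightest gave -0.12 ± 0.053 and the others 0.075 ± 0.051 and 0.11 ± 0.12. For Masp1 the brightest gave 0.079 ± 0.094 and the others -0.00087 ± 0.13 and -0.29 ± 0.092.

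C3, on which the activation pathways converge, had intensities of 23810, 24475 and 25979 as the lowest, median and highest of the high-dosed animals. Controls 1, 2 and 9 had 25066, 25384 and 25373. High-dosed animal 2 lay above the controls and the other high-dosed animals below them. The log2 fold change was -0.040 ± 0.027 (SE, limma adjusted p = 0.393), with a 95% interval of 0.934-fold to 1.013-fold.

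Among the 6 genes of the terminal pathway, which form the membrane pore, 0 passed, 3 had a log2 fold change above 0 and 3 below. C5 had the lowest p of these. Its intensities in high-dosed animals were 6179 at the lowest, 7253 at the median and 7980 at the highest, beside 7571, 7787 and 8458 in controls 1, 2 and 9. High-dosed animals 2, 5 and 8 lay within the control range and the other high-dosed animals under it (log2 fold change -0.15 ± 0.078, SE, limma adjusted p = 0.266). C6 showed the widest spread among controls of any member, with 4276 in control 1, 6425 in control 2 and 8452 in control 9. The high-dosed animals all lay inside that range, between 5766 and 7004, and the log2 fold change was 0.052 ± 0.14. Leaving out control 1 gave -0.21 and leaving out control 9 gave 0.28, neither of them called. C8a, C8b and C8g encode the chains of C8, and C9 polymerises into the ring of the pore. C8b was tight, at 10416 to 10908 in high-dosed and 10084 to 10619 in control animals. C9 had 13695 to 15340 in high-dosed and 13293 to 15709 in control animals, and C8g had 10627 to 11756 against 10996 to 12831.

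Regulators keep complement off host surfaces and in balance, and none of the 5 tested passed. Serping1, the C1 inhibitor, which also blocks factor XIIa and kallikrein, came nearest. High-dosed animals had 11876 at the lowest, 12197 at the median and 12639 at the highest, and controls 1, 2 and 9 had 12754, 12816 and 13375. The groups did not overlap, although the log2 fold change of -0.085 ± 0.030 (SE) did not pass after adjustment (limma adjusted p = 0.0916). C4bpa, the alpha chain of the C4b-binding protein, was highest in high-dosed animals 8, 10 and 11, with 15096, 14704 and 14325. The remaining high-dosed animals had 11677 to 13181 and the controls 13037 to 14172, so the group difference was small (-0.034 ± 0.069). C4bpb, whose protein binds protein S in plasma, had 8453 to 10043 in high-dosed and 9224 to 9959 in control animals. Cfi, the protease that inactivates C3b and C4b, and Vtn, vitronectin, had log2 fold changes of 0.027 ± 0.033 and 0.0034 ± 0.029. The median over all 18 complement genes tested was -0.037, with 8 above 0 and 10 below.

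**Figure D3:**
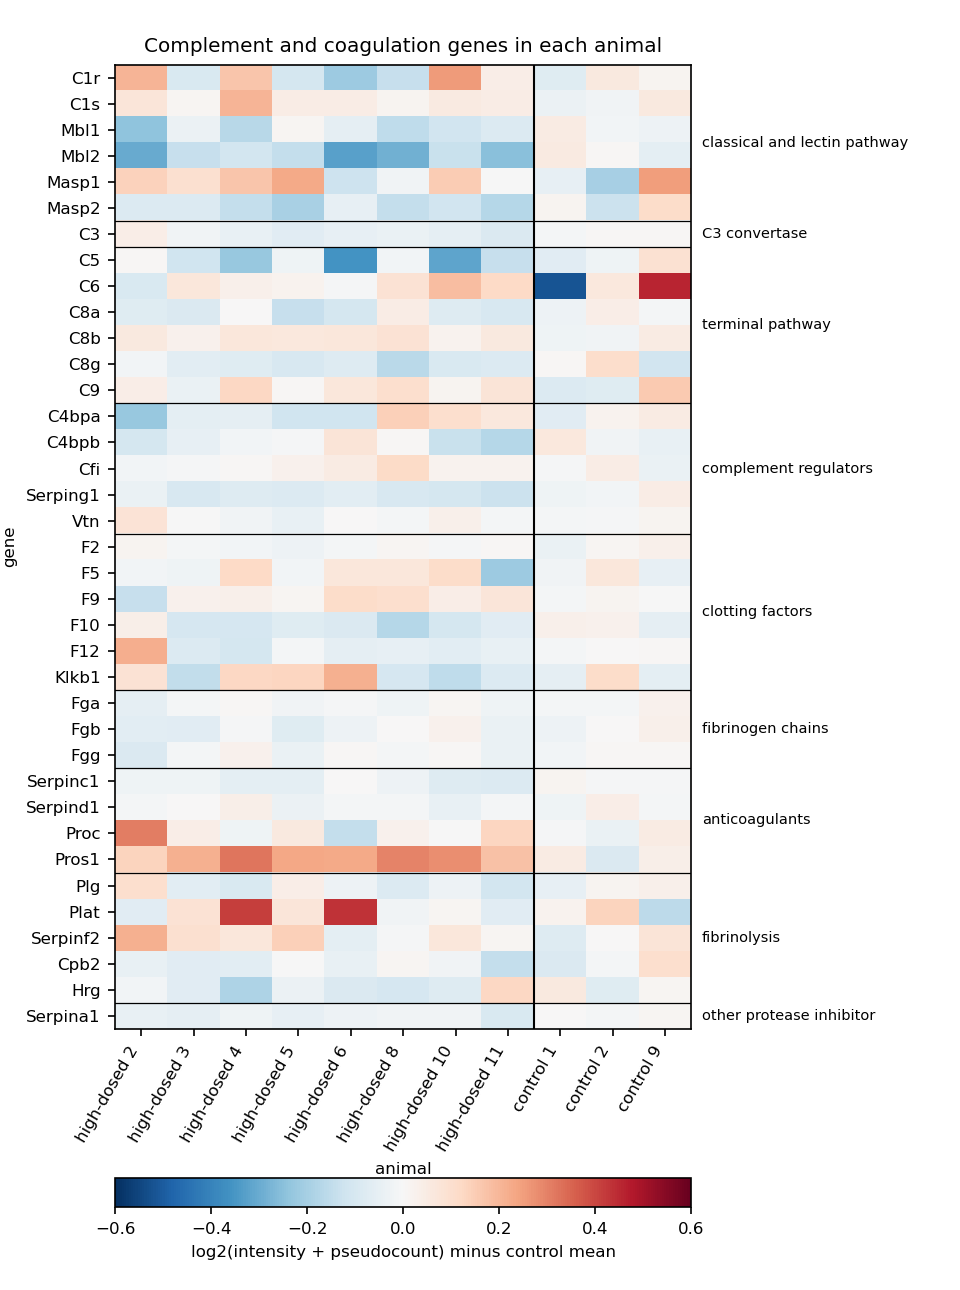
Each cell is the log2(intensity + pseudocount) of a gene in an animal minus the control mean of that gene, blue for lower and red for higher (scale from -0.6 to 0.6), with genes grouped by role and high-dosed animals left of controls. Rows of Pros1 and Mbl2 have 1 colour in all high-dosed animals, as have those of C1s, C8b, Masp2, C8g, Serping1 and Serpina1. Control cells of every row hold both signs because the control mean is subtracted, and those of C6 spread the most. Most other rows are pale.

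Of the 9 clotting factor genes tested, fibrinogen chains included, 0 passed, and for all 9 the 95% interval lay within 1.2-fold. The median log2 fold change was -0.016, with 3 above 0 and 6 below. F10, the protease that forms thrombin, had the lowest p among the factors. Its intensities were 9622 at the lowest, 10149 at the median and 11106 at the highest in high-dosed animals, beside 11061, 11036 and 10437 in controls 1, 2 and 9. High-dosed animal 2 stood above all controls and the other high-dosed animals below them (-0.084 ± 0.041, SE, limma adjusted p = 0.222). F2, prothrombin, was nearly constant, at 17464 to 18030 in high-dosed and 17353 to 18228 in control animals, with a 95% interval of 0.959-fold to 1.035-fold. F9, the factor missing in haemophilia B, had 11208 to 13324 in high-dosed and 12245 to 12466 in control animals. F5, the cofactor of factor Xa, had 3472 to 4402 against 3906 to 4246. F12 and Klkb1 encode factor XII and plasma kallikrein, the contact system. F12 had 11723 in high-dosed animal 2, 9347 to 9984 in the other high-dosed animals and 9989 to 10117 in the controls. Klkb1 had 6946 to 8962 in high-dosed and 7428 to 8350 in control animals. F3, tissue factor, is known mainly from cells around vessels. Its probe set read 103 in high-dosed animal 11, 42.2 to 57.9 in the other high-dosed animals and 36.4 to 51.3 in controls, under the filter, so no difference could be tested.

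The 3 fibrinogen chains gave log2 fold changes of -0.016 ± 0.025 for Fga, -0.031 ± 0.028 for Fgb and -0.018 ± 0.027 for Fgg (SE), none of them called (limma adjusted p from 0.55 to 0.721). The brightest Fgb probe set had 20837, 21369 and 22305 as the lowest, median and highest of the high-dosed animals and 21421, 21899 and 22375 in controls 1, 2 and 9. Its 95% interval ran from 0.938-fold to 1.021-fold. A second Fgb probe set, far dimmer, had 137, 134 and 153 in high-dosed animals 8, 10 and 11, between 239.7 and 282 in the other high-dosed animals, and 263, 269 and 295 in the controls. The groups overlapped on it, and its log2 fold change was -0.34 ± 0.18 (SE). On the brightest probe set, animals 10 and 8 were instead the highest of the high-dosed group, with 22305 and 21921, and animal 11 had 21307. The cause of this disagreement was not tested. A second Fga probe set gave -0.085 ± 0.062, with 6717 to 7736 in high-dosed and 6779 to 8453 in control animals. Fibrinogen, like C3, is also an acute phase product.

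Of the 5 genes of fibrinolysis 0 passed, and their median was -0.034. Serpinf2, alpha-2-antiplasmin, had the lowest p. High-dosed animals had 7674 at the lowest, 8391 at the median and 9289 at the highest, and controls 1, 2 and 9 had 7591, 8004 and 8432, so the groups overlapped (0.066 ± 0.055, SE, limma adjusted p = 0.497). Plg, plasminogen, had 17073 to 19772 in high-dosed and 17857 to 18870 in control animals. Cpb2, the carboxypeptidase that slows clot lysis, had 10364 to 11529 against 10744 to 12244. Hrg, histidine-rich glycoprotein, which binds plasminogen and heparin, had 19088 in high-dosed animal 11, 15425 to 17327 in the other high-dosed animals and 16660 to 18269 in controls. Plat, tissue plasminogen activator, a product of endothelium, was the dimmest member tested. It had 383 to 566 in high-dosed animals, with 557 and 566 in animals 4 and 6, and 357 to 450 in controls, and its interval was wide (0.898-fold to 1.294-fold).

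Serpina1, alpha-1-antitrypsin, an inhibitor of neutrophil elastase, was the remaining member. High-dosed animals had 24083, 25034 and 25279 as the lowest, median and highest, and controls 1, 2 and 9 had 25677, 25483 and 25861. The groups did not overlap, but the difference was 0.971-fold with a 95% interval of 0.938 to 1.005 (log2 fold change -0.043 ± 0.023, SE, limma adjusted p = 0.275). Under other scalings of the arrays it ran from -0.064 to -0.0042.

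**Figure D4:**
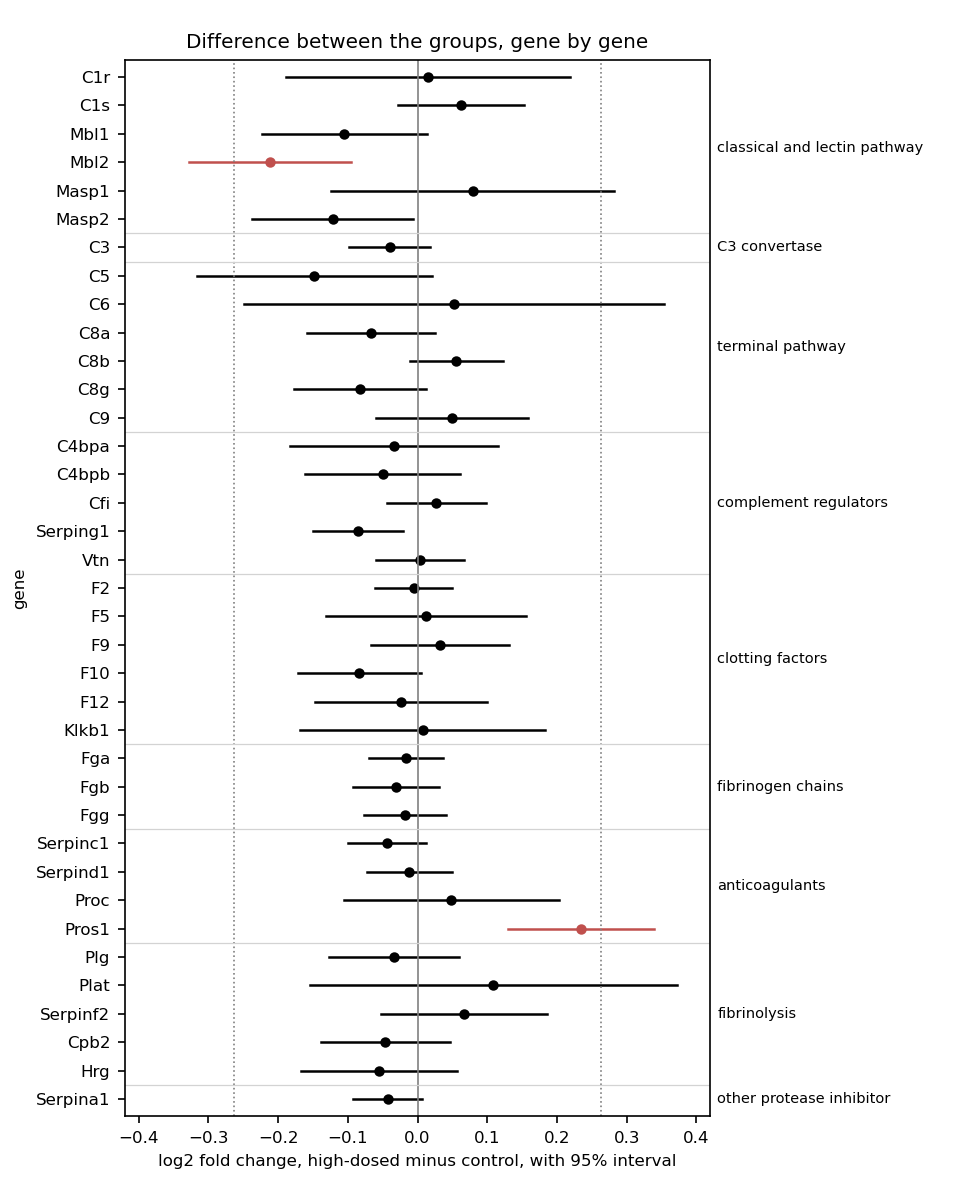
Log2 fold change, high-dosed minus control, with its 95% interval (x axis) for each of the 37 genes tested (y axis), grouped by role; red marks the 2 called genes and dotted lines mark a 1.2-fold difference. The intervals of 31 genes lie between the dotted lines.

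The coefficient of variation of the members' intensity within groups had a median of 4.37% over the 8 high-dosed animals and 3.26% over the 3 controls. Within the high-dosed group it was lowest for F2 (1.12%), Fga (1.42%) and C8b (1.57%) and highest for Plat (16.8%), C1r (12.5%) and Klkb1 (10.1%). High-dosed animal 2 was an extreme more often than the others, the highest of its group for 11 members and the lowest for 9 of the 37. It was highest for C3, C5, C8g, Serping1, Vtn, F2, F10, F12, Proc, Plg and Serpinf2, and lowest for Mbl1, C6, C4bpa, Cfi, F9, Fga, Fgg, Pros1 and Plat. High-dosed animal 3 was the highest for 0 and the lowest for 2. Extremes were not counted over all genes tested, so these counts are not known to be particular to the members. Over all genes, 1354 were called without high-dosed animal 2, against 1054 with all animals.

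Other genes of these cascades were measured beside the members. Over all genes tested, 7.23% were called higher and 2.60% lower, the shares to set beside the calls of the lists below. Of 13 tested genes on a list of other complement genes 1 rose, 0 fell and 12 did not pass, and the list's median was 0.10. The rise was Cr1l, the rodent membrane inhibitor of C3 activation known as Crry, with 1570, 1669 and 1922 as the lowest, median and highest of the high-dosed animals and 1211, 1314 and 1183 in controls 1, 2 and 9 (0.44 ± 0.068, SE, limma adjusted p = 0.00265). C1qa, C1qb and C1qc, which macrophages make, had 0.27 ± 0.13, 0.26 ± 0.12 and 0.18 ± 0.12 and did not pass. Of 10 tested markers of Kupffer cells and macrophages, these 3 included, 1 rose, 0 fell and 9 did not pass. Their summed intensity ran from 29254 to 39033 in high-dosed and from 23922 to 30928 in control animals, with none at 0. That sum contains the 3 C1q genes, so it is not independent of their values. Of the 10 markers, 8 had a log2 fold change above 0. Cd163 (-0.22 ± 0.18, SE) and Cd14 (-0.11 ± 0.098, SE) were the 2 below 0. The part of the markers in the C1q values was not tested.

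On the list of other clotting genes 1 of 12 rose, 0 fell and 11 did not pass, with a median of 0.12. Serpina5, the protein C inhibitor, had 147, 205 and 268 as the lowest, median and highest of the high-dosed animals, beside 104, 104 and 48.4 in controls 1, 2 and 9 (0.88 ± 0.16, SE, limma adjusted p = 0.00506). In controls its mean log2 signal, 7.11, was below the low-signal limit of 7.40. Serpina5 passed the filter only through the high-dosed animals, at 7.99, so its call and the size of this rise are less certain. On the list of other fibrinolysis genes 1 of 7 rose, 0 fell and 6 did not pass, with a median of 0.12. This was A2m, alpha-2-macroglobulin, which traps plasmin and other proteases and is an acute phase protein of the rat. It had 216 in high-dosed animal 5 and up to 809 in high-dosed animal 3, with a median of 539, against 123, 132 and 171 in controls 1, 2 and 9 (1.53 ± 0.29, SE, limma adjusted p = 0.00671).

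Factors II, IX and X and proteins C and S need vitamin K for their carboxylation. Of 5 tested genes of the vitamin K cycle 0 rose, 1 fell and 4 did not pass, with a median of -0.042. The carboxylase Ggcx had 0.13 ± 0.075 and the epoxide reductase Vkorc1 0.0050 ± 0.039. Nqo1, a quinone reductase that can also reduce vitamin K, fell, with 1346, 1682 and 2229 as the lowest, median and highest of the high-dosed animals and 2493, 2501 and 2247 in controls 1, 2 and 9 (-0.51 ± 0.13, SE, limma adjusted p = 0.0254). Its call was lost without control 1 or control 2 (adjusted p = 0.123 and 0.0839), with median centring over all probe sets (-0.47, adjusted p = 0.0578) and with animal numbers 6 and below (-0.61, adjusted p = 0.073).

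Of 12 tested liver transcription factors 0 passed, with a median of 0.060. Of these, 7 had a log2 fold change above 0 and 5 below. Hnf4a had -0.044 ± 0.082, Cebpb -0.030 ± 0.053 and Stat3 -0.052 ± 0.077. Cebpa had 0.199 ± 0.069 (SE, limma adjusted p = 0.0872) and Nr5a2 0.193 ± 0.068 (SE, limma adjusted p = 0.091). Of 18 tested genes of other acute phase proteins 0 rose, 1 fell and 17 did not pass, with a median of -0.015. This list mixes proteins known to rise in an acute phase with others known to fall, such as albumin (Alb) and transthyretin (Ttr). Its counts and median therefore do not measure such a response. Alb had 0.0012 ± 0.019 and Ttr 0.028 ± 0.024 (SE). A2m, an acute phase protein that rose, was counted with the fibrinolysis genes instead. The fall was Orm1, alpha-1-acid glycoprotein, with 11256, 12671 and 13490 as the lowest, median and highest of the high-dosed animals and 14514, 16469 and 15032 in controls 1, 2 and 9 (-0.29 ± 0.053, SE, limma adjusted p = 0.00617). The call of Orm1 was lost with median centring over all probe sets (-0.25, adjusted p = 0.0916). Haptoglobin Hp and the C-reactive protein gene Crp had -0.0077 ± 0.023 and -0.027 ± 0.064.

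The tissue carried its label: Alb, encoding albumin, was the brightest probe set on each of the 11 arrays, at 33424 to 34328. Of 11 tested hepatocyte markers 1 rose, 1 fell and 9 did not pass. The called share was 18.2%, against 9.84% of all genes tested. Apoa1 rose (0.35 ± 0.078, SE, limma adjusted p = 0.0151) and Asgr1 fell (-0.18 ± 0.045, SE, limma adjusted p = 0.0272). The summed intensity of the 11 markers was 179861 to 192787 in high-dosed and 180436 to 182384 in control animals. Apart from Plat, the tested members lay at or above the 92.6th percentile of probe set signal. Whether differences are compressed at such high signals was not tested, so the small fold changes and spreads are those of the array signal.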

How the data were processed

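Liver RNA of 11 rats was hybridised to 11 Affymetrix arrays, 1 per animal. The deposited values are the intensity of each of 31099 probe sets on a linear scale. MAS5 is named in the submitters' processing notes, without version or role. The authors' scaling between arrays and the genome build are not given in the sources used here, and array medians ran from 149 to 186.6. Values were used as deposited, as log2(intensity + 55.26), the 20th percentile of all values, so fold changes of dim genes are understated. Probe sets of Affymetrix controls (57) and those whose mean log2 signal fell below the 40th percentile (7.40) were removed. The remaining 18625 were fitted in limma 3.58.1 (R 4.3.3) with a variance trend, two-sided; 1 probe set per gene was then taken and p-values were adjusted over 10714 genes. Adjusted p below 0.05 is a call. Intervals come from the moderated variance.

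Symbols came from the platform annotation: 20832 probe sets had 1 symbol, 436 several and 9831 none listed. The symbols of the 38 members were checked by Entrez identifier and matched RefSeq. Precision is limited by the 11 arrays, since 3 are controls. Alternatives changed the scaling, pseudocount, filter, variance model, array weights, probe set rule and the animals included. Members and lists were chosen with earlier results of these data known, so no value adjusted over a list is given. Values by animal were given for the called members, for the member with the lowest p in each role without a call, and for called genes of the other lists; further values were chosen after they were seen. Animals share 1 number between groups, which was not used.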

Additional observations from a re-analysis of the deposited data

Results flagged for a closer look

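On 5 of the 37 tested members a high-dosed animal, which was animal 2, 4 or 11, stood apart from its group. Its gap to the nearest animal was taken as a share of the group's whole range, both on the log2(intensity + pseudocount) scale. This share exceeded Dixon's 95% critical value for 8 values. Chance gives such a gap in about 1 in 20 groups. How often the rule flags a gene among all genes tested was not computed, and the same 8 animals underlie every gene. Intensities below are linear, and gaps are on the log2 scale. F12 was high in animal 2, at 11723, with a gap of 0.709 of the range. C1s was high in animal 4, at 13141, with a gap of 0.698. F9 was low in animal 2, at 11208, with a gap of 0.61. F5 and Serpina1 were low in animal 11, at 3472 and 24083, with gaps of 0.566 and 0.535. None of these 5 genes was called. The group of 3 controls was too small for this rule, so the spread of C6 among controls was not tested.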

How the results depend on the processing

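Over 25 alternatives, 20 of the 37 members kept their sign, and Pros1 and Mbl2 were the members called in any of them. The count of members called was 1 with median centring over all probe sets or over those tested, without a variance trend, with the mean of a gene's probe sets, and without high-dosed animals 8, 10 and 11. It was 0 with animal numbers 6 and below, and 0 to 2 when 1 animal was left out, the 0 being without control 2. Of all genes, 1054 were called, against 1674 with array weights, 666 without high-dosed animals 8, 10 and 11, 566 with numbers 6 and below, and 295 (without control 1) to 1354 (without high-dosed animal 2) when 1 animal was left out.

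The median log2 fold change of complement members, -0.037, was 0.0013 with median centring, -0.058 with centring over the probe sets tested, -0.024 without high-dosed animals 8, 10 and 11, and -0.058 to -0.023 when 1 animal was left out. That of clotting factors, -0.016, was 0.022 and -0.038 under the 2 centrings. That of anticoagulants, 0.018, was 0.057 and -0.003, and -8.4e-05 to 0.032 when 1 animal was left out. That of fibrinolysis, -0.034, was 0.0045 and -0.055 under the 2 centrings, 0.0068 with numbers 6 and below, and -0.047 (without high-dosed animal 2) to 0.003 (without control 9) when 1 animal was left out. Fgb turned to 0.00764 with median centring and was -0.188 as the mean of its probe sets, of which the second gave -0.345. Each centring shifts all genes of an array by the same amount. The median over all genes tested, 0.0174, was 0.0558 with median centring and -0.00399 with centring over the probe sets tested. The cause of the other shifts was not tested. The sign of the complement, clotting factor, anticoagulant and fibrinolysis medians changed under 1 of the centrings each.

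The fits with numbers 6 and below, with 1 probe set per gene and with centring over the probe sets tested were chosen after seeing the data. No paired analysis was possible because the groups share only the animal number 2.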
